A study of Mus musculus with 6 samples.

Results

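The 10 genes described here were followed across 6 RNA-seq libraries of 4T1, a mouse mammary carcinoma cell line. They are Trp53, its inhibitor Mdm2, the arrest genes Cdkn1a, Btg2, Plk2, Ccng1 and Phlda3, and the GADD45 family Gadd45a, Gadd45b and Gadd45g. Each was taken as the row of that symbol in every library, which gave 10 of 24346 symbols, all 10 with a mean of at least 1 FPKM. FPKM counts fragments per length of transcript and per mapped fragments, so it can be set side by side between genes. The genes were selected on FPKM differences among these same groups, already known when they were picked. Their values and calls are therefore a description, and no p-value is given for them.

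The shRNA1 and shRNA3 cells carry 2 different short hairpins against the long non-coding RNA AU021063, and the WT cells were mock transfected. Each group has 2 libraries. No group with a non-targeting hairpin is named, nor is it stated whether the hairpin cells are clones or pools, or whether the 2 libraries of a group come from separate cultures. Any p-value or SE below rests on library-to-library variation alone, and that variation could be technical. Read counts are not in the tables used, so the depth is unknown and no counting interval is given.

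p53, the product of Trp53, is a transcription factor that is stabilised after DNA damage and other stress. It switches on genes that stop the cell cycle, repair DNA or kill the cell, and one of them, Mdm2, encodes the ubiquitin ligase that destroys p53. Cdkn1a encodes p21, an inhibitor of cyclin-dependent kinases and the best-known p53 target. The GADD45 proteins are small acidic stress proteins that bind PCNA, the kinase CDK1 and the MAP kinase kinase kinase MAP3K4. Gadd45a is a p53 target, while Gadd45b is also an early target of NF-kappaB and TGF-beta signalling, and Gadd45g of cytokines. The 4T1 line is usually described as lacking functional p53, and RNA levels do not show protein.

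AU021063 itself, the targeted RNA, was listed at 1.05 and 0.572 FPKM in shRNA1, at 0.785 and 0 FPKM in shRNA3 and at 1.82 and 1.67 FPKM in WT. The hairpin libraries were therefore below both WT libraries, at levels near the lower end of the tables. FPKM summed to between 560862 and 604022 per library, and 10998 to 11106 symbols reached 1 FPKM. The carcinoma markers Epcam, Cdh1, Krt8, Krt18 and Krt7 were at 1 FPKM or more in each group, and Krt14 was not (5 of 6). The summed carcinoma markers were 1020 to 1090 FPKM in shRNA1, 734 to 737 FPKM in shRNA3 and 929 to 962 FPKM in WT. Ptprc, Cd3e and Itgam were at 0 in all 6 libraries, and the 5 immune markers used summed to at most 0.045 FPKM. The 4 endothelial markers summed to at most 0.194 FPKM, with Kdr at 0. Of 5 fibroblast markers, Pdgfra and Pdgfrb were present, Lum was at most 0.062 FPKM, Col1a2 at most 0.014 FPKM and Thy1 at 0. The sum of the 5, nearly all from Pdgfra and Pdgfrb, was 59.7 to 60.5 FPKM in shRNA1, 57.9 to 61.5 FPKM in shRNA3 and 69.3 to 70.1 FPKM in WT. The part of these marker shifts in the results was not tested.

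The proximal promoters of the 6 genes with the largest absolute change with both hairpins, and of Gadd45a for its family, are shown with their motif matches. Whether any motif bears on the changes was not tested. Sequences are from RefSeq on GRCm38.p6 and cover 250 bases before to 50 after the start of the gene, 5′ to 3′ on the gene's own strand. Capitals mark matches to the motifs named after the sequences.
Trp53: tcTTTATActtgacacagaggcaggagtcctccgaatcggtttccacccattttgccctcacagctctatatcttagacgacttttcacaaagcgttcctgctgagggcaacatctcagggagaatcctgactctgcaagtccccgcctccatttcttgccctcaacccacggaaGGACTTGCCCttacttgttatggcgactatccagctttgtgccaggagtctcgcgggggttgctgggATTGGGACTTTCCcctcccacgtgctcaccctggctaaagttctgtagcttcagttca
Cdkn1a: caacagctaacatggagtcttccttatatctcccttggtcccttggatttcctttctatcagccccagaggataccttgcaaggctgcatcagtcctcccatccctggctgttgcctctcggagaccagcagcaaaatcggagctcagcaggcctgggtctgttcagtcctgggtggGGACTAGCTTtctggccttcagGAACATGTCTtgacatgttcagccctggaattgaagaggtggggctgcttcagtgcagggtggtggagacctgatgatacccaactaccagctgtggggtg
Btg2: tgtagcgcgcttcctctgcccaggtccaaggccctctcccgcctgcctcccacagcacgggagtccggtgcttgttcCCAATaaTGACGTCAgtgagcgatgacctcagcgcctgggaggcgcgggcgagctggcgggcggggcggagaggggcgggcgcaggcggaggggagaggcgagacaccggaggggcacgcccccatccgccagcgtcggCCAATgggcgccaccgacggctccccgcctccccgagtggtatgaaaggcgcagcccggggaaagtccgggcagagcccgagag
Plk2: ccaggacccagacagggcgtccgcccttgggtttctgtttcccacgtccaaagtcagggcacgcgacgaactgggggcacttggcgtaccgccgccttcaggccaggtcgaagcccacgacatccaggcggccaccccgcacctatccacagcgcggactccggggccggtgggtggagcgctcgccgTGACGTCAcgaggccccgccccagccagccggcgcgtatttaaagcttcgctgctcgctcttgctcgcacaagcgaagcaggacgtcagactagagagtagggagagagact
Gadd45a: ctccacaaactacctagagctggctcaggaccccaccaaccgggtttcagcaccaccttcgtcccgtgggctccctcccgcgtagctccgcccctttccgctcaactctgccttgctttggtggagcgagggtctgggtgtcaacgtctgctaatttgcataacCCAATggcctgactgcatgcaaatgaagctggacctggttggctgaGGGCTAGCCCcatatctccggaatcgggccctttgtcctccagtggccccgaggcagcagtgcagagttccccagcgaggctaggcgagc
Gadd45b: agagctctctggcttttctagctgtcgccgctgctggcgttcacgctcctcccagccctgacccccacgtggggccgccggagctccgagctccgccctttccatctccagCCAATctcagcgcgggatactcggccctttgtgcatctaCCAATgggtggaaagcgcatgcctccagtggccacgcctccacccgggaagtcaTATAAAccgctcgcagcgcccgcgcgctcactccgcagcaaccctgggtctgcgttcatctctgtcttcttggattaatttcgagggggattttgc
Gadd45g: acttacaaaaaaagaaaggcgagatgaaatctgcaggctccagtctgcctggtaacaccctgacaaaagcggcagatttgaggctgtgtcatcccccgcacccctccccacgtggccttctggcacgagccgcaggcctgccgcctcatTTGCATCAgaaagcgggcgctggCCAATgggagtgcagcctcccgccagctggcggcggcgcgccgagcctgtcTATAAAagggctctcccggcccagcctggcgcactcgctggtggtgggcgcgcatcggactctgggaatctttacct

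These windows lie at chr11:69580109-69580408 on the plus strand for Trp53, chr17:29090729-29091028 plus for Cdkn1a, chr1:134079106-134079405 minus for Btg2, chr13:110394794-110395093 plus for Plk2, chr6:67037358-67037657 minus for Gadd45a, chr10:80929841-80930140 plus for Gadd45b and chr13:51846425-51846724 plus for Gadd45g. Cdkn1a has a second RefSeq start 2790 bases downstream, so the 10 genes have 11 windows. Both strands were searched for a p53 decamer (the 10-letter unit of a p53 response element), a cyclic AMP response element (CRE, TGACGTCA), an AP-1 site (TGANTCA), an ATF4-C/EBP composite site (TGATGNAA), a kappaB site, a CArG box, a TATA box (TATAAA) and a CCAAT box (CCAAT). A match describes letters in the window and does not show that a factor binds there.

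A p53 decamer was found in 5 of the 10 genes, against 8.36% of all 32851 RefSeq promoter windows of this length. The set was put together from p53-linked and GADD45 genes, so nothing is read from that difference. Here and below, genes are counted among the 10 and windows in the background. It began 75 bases before the start of Trp53, 186 before Mdm2, 185 before Ccng1 and 40 before Gadd45a. In Cdkn1a there were matches 73 and 51 bases before the upstream of its 2 RefSeq starts. Btg2, Plk2, Gadd45b, Gadd45g and Phlda3 held none in these windows. A TATA box was found in 3 of 10 genes, against 13.62% of all windows. It stood 46 bases before the start of Gadd45b and 27 before Gadd45g. In Trp53 the match was on the minus strand and 248 bases before the start. The CRE was found in Btg2, 166 bases before its start, and in Plk2, 62 before (2 of 10, against 1.79%). Gadd45g held an ATF4-C/EBP composite site on its minus strand 101 bases before the start (1 of 10, against 3.97%). A kappaB site began 5 bases before the start of Trp53, ran across that start and overlapped a CCAAT box (1 of 10, against 4.51%). CCAAT boxes were found in 7 of the 10 genes, against 37.41% of all windows. AP-1 sites (7.81% of all windows) and CArG boxes (1.63%) were found in 0 of the 10, and the Phlda3 window and the second Cdkn1a window held no match to any motif searched.

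Levels were compared with limma on log2(FPKM + 1) over 11079 genes, and a gene was called when its Benjamini-Hochberg adjusted p was under 0.05. Calls were frequent in all genes. With both hairpins averaged against WT, 50.0% of genes were called, 24.1% higher and 25.9% lower. The shRNA1 cells had 36.0% called against WT, 17.6% higher and 18.4% lower. The shRNA3 cells had 55.2% called against WT, 27.4% higher and 27.8% lower. Between shRNA3 and shRNA1, 42.5% were called, 22.0% higher and 20.5% lower. Of the 10 genes, 8 were called with both hairpins against WT (6 higher, 2 lower), 7 with shRNA1 (5 and 2), 7 with shRNA3 (6 and 1) and 7 between shRNA3 and shRNA1 (5 and 2). Since the genes were picked with these differences known, nothing is read from these counts. When the 2 hairpins were instead treated as a single group of 4 libraries, their differences entered the error term. Then 3 of the 10 were called against WT, namely Trp53, Plk2 and Gadd45b, beside 13.7% of all genes in that fit. The median change of the 10 genes with both hairpins was 0.46 log2 units, against -0.01 over all genes, and their median absolute change was 0.67, against 0.17. For shRNA1 alone the median absolute change was 0.47, against 0.15, and for shRNA3 alone 0.33, against 0.22. The genes were picked on these differences, so nothing is read from these medians either. Scaling every library to the same FPKM total kept 6 higher and 2 lower among the 10. Over all genes, 34.3% of those called were higher under that scaling, against 48.2% without it. For shRNA1 alone these shares were 34.9%, against 49.0%, and for shRNA3 alone 37.6%, against 49.7%.

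**Figure D1:**
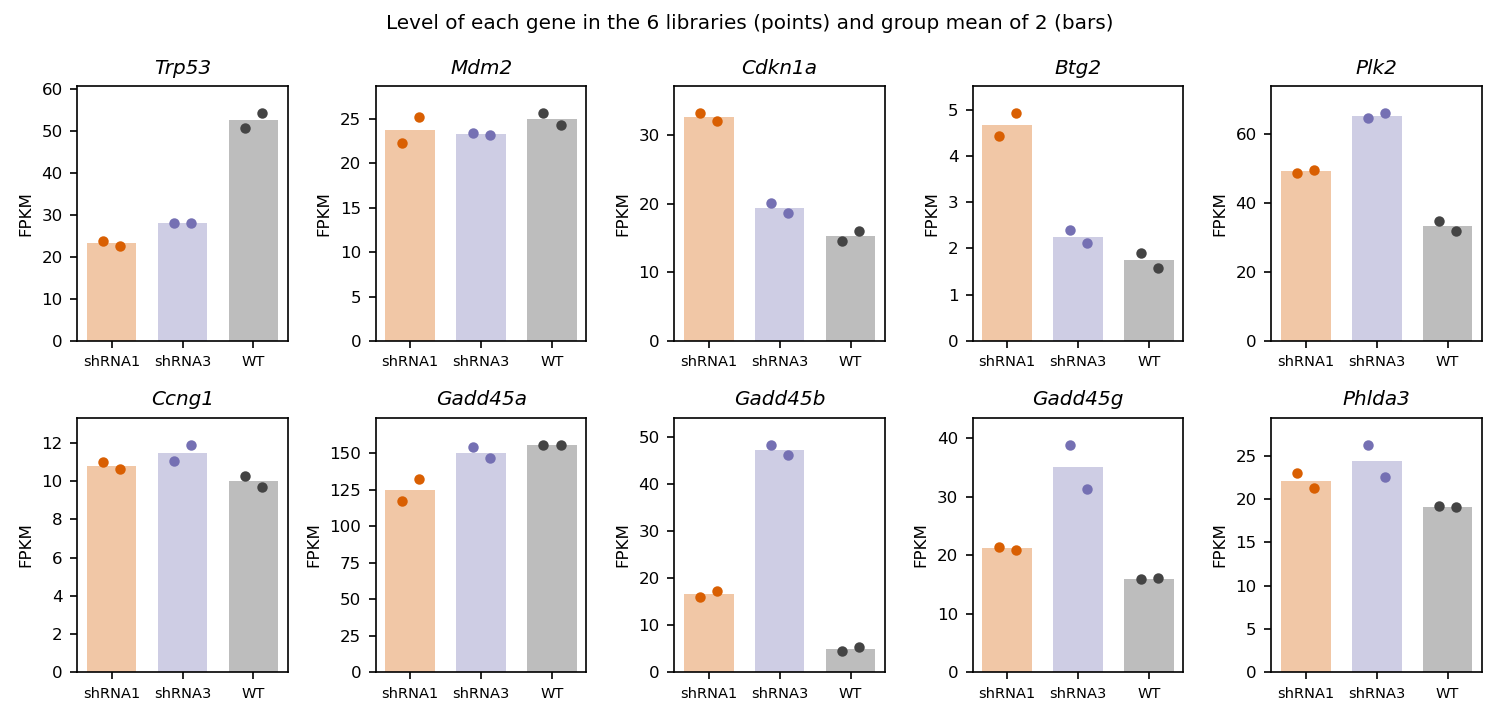
FPKM of each gene in each library (points; axes in FPKM, from 0, with a scale for each gene) by group, shRNA1, shRNA3 and WT, with the mean of 2 libraries as a bar. Gadd45b lies at 15.9 and 17.3 in shRNA1, 48.3 and 46.2 in shRNA3 and 4.52 and 5.46 in WT, while Mdm2 stays between 22.3 and 25.6 in all 6 libraries.

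Trp53 RNA fell with both hairpins while the RNA of its inhibitor Mdm2 was not called in any comparison. Trp53 was at 23.9 and 22.7 FPKM in shRNA1, at 28.2 and 28.0 FPKM in shRNA3, and at 50.9 and 54.3 FPKM in WT. All 4 hairpin libraries were below both WT libraries, and the 2 hairpins did not overlap. In bulk RNA, fewer cells with the transcript and less of it per cell cannot be told apart. The level averaged 23.3 ± 0.86 FPKM in shRNA1, 28.1 ± 0.141 FPKM in shRNA3 and 52.6 ± 2.42 FPKM in WT (SD, n = 2 each). This was 44.3% of WT in shRNA1 and 53.5% of WT in shRNA3, or log2 changes of -1.14 ± 0.05 and -0.88 ± 0.05 (SE). With both hairpins averaged, 1.29% of all genes tested had a larger absolute change. The shRNA3 level was 1.21 times that of shRNA1 (log2 0.26 ± 0.05, called higher). Trp53 (ENSMUSG00000059552.13) lies at chr11:69580359-69591873 on the plus strand of mm10. Its processed pseudogene Trp53-ps lies on chromosome 17, and how reads fitting both were counted is not stated in the labels or tables. Wrap53, the gene that starts next to Trp53 on the opposite strand without overlapping it in this annotation, was at 9.05 and 8.78 FPKM in shRNA1, 9.15 and 8.11 FPKM in shRNA3 and 8.70 and 9.47 FPKM in WT, and its groups overlapped. Trp53cor1, the lincRNA-p21 locus near Cdkn1a, was at or under 0.297 FPKM in all 6 libraries.

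Mdm2 (ENSMUSG00000020184.15, chr10:117688875-117710758, minus strand) was at 22.3 and 25.3 FPKM in shRNA1, at 23.4 and 23.2 FPKM in shRNA3, and at 25.6 and 24.4 FPKM in WT. The shRNA1 and WT libraries overlapped, and the shRNA3 libraries lay just below WT. The log2 change was -0.07 ± 0.07 for shRNA1 and -0.10 ± 0.07 for shRNA3 (SE), neither called, and its sign for shRNA1 turned to 0.01 without shRNA1 replicate 1. The ratio of Mdm2 to Trp53 within a library was 0.933 and 1.11 in shRNA1, 0.83 and 0.826 in shRNA3, and 0.504 and 0.449 in WT. Mdm2 RNA was thus higher relative to Trp53 in all 4 hairpin libraries than in both WT libraries.

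Cdkn1a and Btg2, which both act to stop cells from entering S phase, were highest with shRNA1 and closer to WT with shRNA3. Cdkn1a (ENSMUSG00000023067.14, chr17:29090976-29100727, plus strand) was at 33.2 and 32.0 FPKM in shRNA1, at 20.1 and 18.7 FPKM in shRNA3, and at 14.5 and 16.0 FPKM in WT. The 3 groups did not overlap. Its mean was 2.13 times WT in shRNA1 (log2 1.05 ± 0.07) and 1.27 times WT in shRNA3 (log2 0.33 ± 0.07), both called higher. The shRNA3 level was 0.596 times that of shRNA1 (log2 -0.72 ± 0.07, called lower). The ratio of Cdkn1a to Trp53 was 1.39 and 1.41 in shRNA1, 0.713 and 0.667 in shRNA3, and 0.285 and 0.296 in WT. Against WT, Cdkn1a RNA and Trp53 RNA thus moved in opposite directions. Whether p53 acts on Cdkn1a in these cells was not tested. An annotated transcript of uncertain coding status overlaps Cdkn1a on the other strand, and whether counting used strand is not given.

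Btg2, an antiproliferative protein that binds the CCR4-NOT deadenylase, had the lowest level of the 10 genes in every group. Btg2 (ENSMUSG00000020423.6, chr1:134075170-134079120, minus strand) was at 4.43 and 4.93 FPKM in shRNA1, at 2.40 and 2.12 FPKM in shRNA3, and at 1.91 and 1.57 FPKM in WT. Its libraries did not overlap between groups. The mean was 2.69 times WT in shRNA1 (log2 1.05 ± 0.11, called higher) and 1.3 times WT in shRNA3 (log2 0.25 ± 0.11, not called). At such levels the added 1 FPKM makes the log2 change smaller than the ratio. The shRNA3 level was 0.483 times that of shRNA1 (log2 -0.80 ± 0.11, called lower). With the hairpins as a single group, the calls of Cdkn1a (log2 0.69) and Btg2 (log2 0.65) against WT were lost.

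Plk2, a polo-like kinase induced by stress and growth factors, rose with both hairpins and more so with shRNA3. Plk2 (ENSMUSG00000021701.8, chr13:110395046-110400844, plus strand) was at 48.8 and 49.7 FPKM in shRNA1, at 64.8 and 66.1 FPKM in shRNA3, and at 34.8 and 31.9 FPKM in WT. The 3 groups did not overlap. The mean was 1.48 times WT in shRNA1 (log2 0.55 ± 0.05) and 1.96 times WT in shRNA3 (log2 0.95 ± 0.05), and 1.33 times higher in shRNA3 than in shRNA1 (log2 0.40 ± 0.05), all called.

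Ccng1 and Phlda3, both classical p53 targets, differed little between the groups. Ccng1 encodes cyclin G1, which recruits the phosphatase PP2A to MDM2. Ccng1 (ENSMUSG00000020326.7, chr11:40748552-40755311, minus strand) was at 10.99 and 10.6 FPKM in shRNA1, at 11.03 and 11.9 FPKM in shRNA3, and at 10.3 and 9.69 FPKM in WT. All 4 hairpin libraries were above WT, by 1.08 times in the mean for shRNA1 (log2 0.10 ± 0.07, not called) and 1.15 times for shRNA3 (log2 0.18 ± 0.07, called). The shRNA3 call was lost without shRNA1 replicate 1 (0.18), shRNA1 replicate 2 (0.18), shRNA3 replicate 2 (0.13), WT replicate 1 (0.22) or WT replicate 2 (0.14). It was also lost with same-total scaling (0.11), with no filter (0.18) and with a replicate block (0.18).

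Phlda3, a PH-domain protein that competes with AKT for membrane lipids, lies on the plus strand at chr1:135766119-135769136 (ENSMUSG00000041801.5). It was at 23.0 and 21.2 FPKM in shRNA1, at 26.2 and 22.5 FPKM in shRNA3, and at 19.1 and 19.1 FPKM in WT. The hairpin libraries were all above WT, and shRNA1 and shRNA3 overlapped. The mean was 1.15 times WT in shRNA1 (log2 0.20 ± 0.08, not called) and 1.27 times WT in shRNA3 (log2 0.33 ± 0.08, called). With both hairpins averaged the change of 0.26 ± 0.07 was called, and it was not called without WT replicate 1 (0.26) or WT replicate 2 (0.26), nor with the hairpins as a single group. The shRNA1 change was called without shRNA3 replicate 1 (0.20) or shRNA3 replicate 2 (0.20), and the difference between the hairpins without shRNA3 replicate 2 (0.24).

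**Figure D2:**
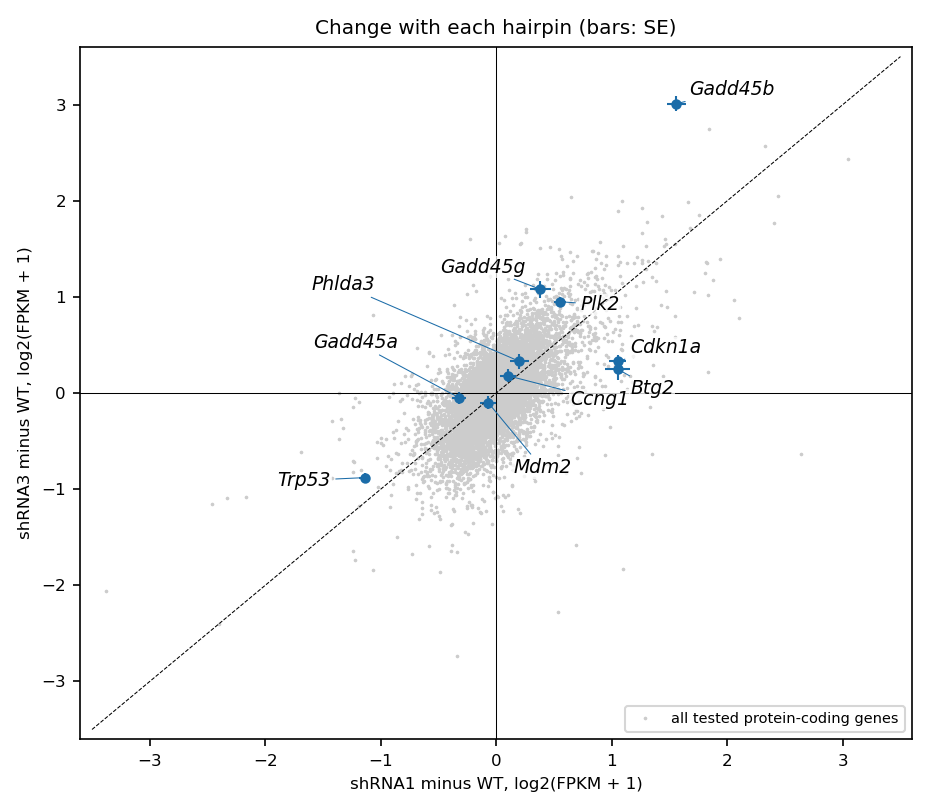
Change with shRNA1 (x axis) and with shRNA3 (y axis), each minus WT on the log2(FPKM + 1) scale, for the 10 genes (blue, bars are SE) and all tested protein-coding genes (gray). Both axes share the WT libraries. Gadd45b is at 1.56 and 3.01 and Trp53 at -1.14 and -0.88, while Cdkn1a and Btg2 lie to the right of the dashed line of equal change.

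The GADD45 genes split, with Gadd45b up strongly, Gadd45g up moderately and Gadd45a, the most abundant of the 3, called lower with shRNA1 and not with shRNA3. Gadd45b (ENSMUSG00000015312.9, chr10:80930073-80932204, plus strand) was at 15.9 and 17.3 FPKM in shRNA1, at 48.3 and 46.2 FPKM in shRNA3, and at 4.52 and 5.46 FPKM in WT. The 3 groups did not overlap. The means of 16.6 ± 0.974 FPKM in shRNA1, 47.3 ± 1.47 FPKM in shRNA3 and 4.99 ± 0.659 FPKM in WT (SD, n = 2 each) gave ratios to WT of 3.33 (log2 1.56 ± 0.08) and 9.47 (log2 3.01 ± 0.08). With shRNA3, 0.108% of all genes tested had a larger absolute change, and with shRNA1 0.505%. The shRNA3 level was 2.84 times that of shRNA1 (log2 1.45 ± 0.08). All 3 differences were called, also without any 1 library.

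Gadd45g (ENSMUSG00000021453.2, chr13:51846678-51848468, plus strand) was at 21.5 and 20.9 FPKM in shRNA1, at 38.9 and 31.4 FPKM in shRNA3, and at 15.9 and 16.1 FPKM in WT. The groups did not overlap, and the 2 shRNA3 libraries were the farthest apart (SD 5.28 FPKM, n = 2). The mean was 1.32 times WT in shRNA1 (log2 0.38 ± 0.09), 2.2 times WT in shRNA3 (log2 1.08 ± 0.09), and 1.66 times higher in shRNA3 than in shRNA1 (log2 0.70 ± 0.09), all called. The shRNA1 call was lost without shRNA1 replicate 1 (0.36) or WT replicate 1 (0.38). With the hairpins as a single group, the change of 0.73 against WT was not called.

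Gadd45a had the highest level of the 10 genes in every group. It was at 118 and 132 FPKM in shRNA1, at 155 and 146 FPKM in shRNA3, and at 156 and 156 FPKM in WT. Both shRNA1 libraries were below all others, while the shRNA3 libraries lay just below WT. The mean was 0.803 times WT in shRNA1 (log2 -0.32 ± 0.06, called lower) and 0.967 times WT in shRNA3 (log2 -0.05 ± 0.06, not called), and 1.20 times higher in shRNA3 than in shRNA1 (log2 0.27 ± 0.06, called). The difference between the hairpins was not called without shRNA3 replicate 1 (0.23). With both hairpins averaged, the change of -0.18 ± 0.05 was called lower. It was not called without shRNA3 replicate 2 (-0.16), WT replicate 1 (-0.18) or WT replicate 2 (-0.18), with no filter (-0.18), or with the hairpins as a single group. Gadd45a (ENSMUSG00000036390.8, chr6:67035096-67037457, minus strand) overlaps E230016M11Rik on the plus strand. That gene was at 15.8 and 13.6 FPKM in shRNA1, 18.99 and 19.1 FPKM in shRNA3 and 16.9 and 19.6 FPKM in WT, and reads of the 2 may not have been separated.

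Within the family, the summed level was 155 and 171 FPKM in shRNA1, 242 and 224 FPKM in shRNA3, and 176 and 177 FPKM in WT. The shRNA3 libraries had the highest sums and the shRNA1 libraries the lowest. Gadd45b made up 10.3% and 10.1% of the sum in shRNA1, 19.98% and 20.6% in shRNA3, and 2.57% and 3.08% in WT. Gadd45a made up 75.8% and 77.6% in shRNA1, 63.9% and 65.4% in shRNA3, and 88.4% and 87.8% in WT. Gadd45g made up 13.9% and 12.2% in shRNA1, 16.1% and 14.0% in shRNA3, and 9.04% and 9.09% in WT. Gadd45a was thus the main family member in all 6 libraries, with a smaller share in every hairpin library than in WT.

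**Figure D3:**
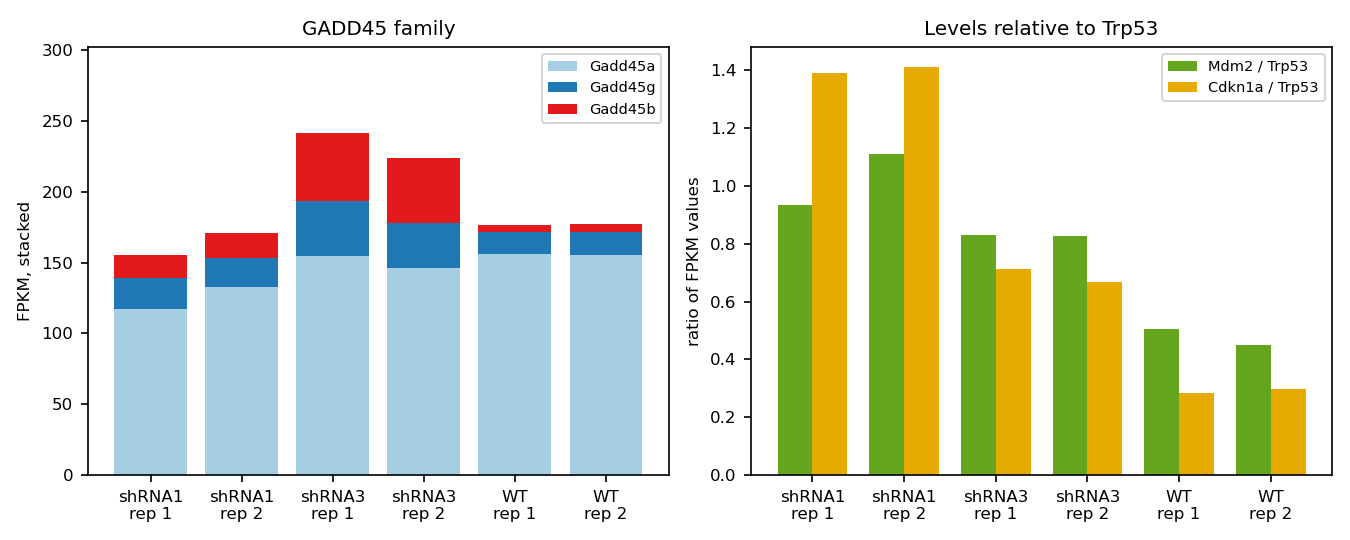
Left, level of Gadd45a, Gadd45b and Gadd45g in each library (stacked bars, FPKM, axis from 0). Right, ratio of Mdm2 to Trp53 and of Cdkn1a to Trp53 in each library. The stacked sum is 242 and 224 FPKM in shRNA3, and the Cdkn1a to Trp53 ratio is 1.39 and 1.41 in shRNA1 against 0.285 and 0.296 in WT.

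The order of the levels changed between groups. In shRNA1 it was Gadd45a, Plk2, Cdkn1a, Mdm2, Trp53, Phlda3, Gadd45g, Gadd45b, Ccng1 and Btg2. In that order Mdm2, Trp53 and Phlda3 overlapped in their libraries, as did Phlda3 and Gadd45g. In shRNA3 it was Gadd45a, Plk2, Gadd45b, Gadd45g, Trp53, Phlda3, Mdm2, Cdkn1a, Ccng1 and Btg2, and Phlda3 and Mdm2 overlapped. In WT it was Gadd45a, Trp53, Plk2, Mdm2, Phlda3, Gadd45g, Cdkn1a, Ccng1, Gadd45b and Btg2, and Gadd45g and Cdkn1a overlapped. Gadd45b thus stood below Ccng1 in WT and above Trp53 in shRNA3.

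The genes nearest to Gadd45b and Trp53 were sought among 10329 other protein-coding genes, by distance in the plane of the shRNA1 and shRNA3 log2 changes, which share the WT libraries. Nearest to Gadd45b were Ptx3 (changes of 1.84 and 2.74, distance 0.39), which encodes the secreted pentraxin 3, Nos2 (2.33 and 2.57, distance 0.89), the inducible nitric oxide synthase, and Dcn (1.66 and 1.98, distance 1.04), the proteoglycan decorin. Within 0.1 of Gadd45b lay 0 genes, and within 0.1 of Trp53 lay 1. Nearest to Trp53 were Chac1 (-1.17 and -0.80, distance 0.08), a glutathione-degrading enzyme, Mthfd2 (-1.24 and -0.82, distance 0.12), a mitochondrial folate enzyme, and Xpot (-1.02 and -0.98, distance 0.16), the exportin of tRNA.

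Other genes of the pathway were called in both directions. Over 6 lists of p53 targets, p53 regulators, GADD45 partners, paralogues and cell-cycle genes, 89 of 98 genes were tested. With both hairpins averaged against WT, 34 were called higher, 21 lower and 34 not called, with a median log2 change of 0.07 beside -0.01 over all genes. The share called higher in all genes was 24.1% and lower 25.9%. With the hairpins as a single group, 16 of the 89 were called (18.0%, 11 higher, 5 lower), beside 13.7% of all genes (798 higher, 715 lower). With same-total scaling, 24 were called higher and 24 lower, beside 1944 higher and 3723 lower of all 11079 genes. That background, tilted to lower, also holds for the same-total counts of each list below. Counts and medians here describe the lists and test nothing about them. The lists were drawn up with results of these data known. Genes named from them have the largest called changes among those with all 4 hairpin libraries on 1 side of both WT libraries. That rule left out Trp63 (0.56 with both, 0.22 with shRNA1, 0.89 with shRNA3), Fas (0.42, 0.04 and 0.80) and Plk4 (0.19, 0.12 and 0.26), called higher with both hairpins. It also left out the Btg2 paralogue Btg3 (-0.30, 0.01 and -0.61), called lower with both hairpins. Since the named genes were picked in this way, their adjusted p-values are no independent evidence.

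Of the other p53 targets for arrest and repair, 17 of 19 were tested, 4 were called higher, 5 lower and 8 not called (median -0.04). Ephx1, the microsomal epoxide hydrolase, rose to 25.1 ± 0.387 FPKM in shRNA1 and 42.9 ± 1.03 FPKM in shRNA3, against 18.2 ± 0.566 FPKM in WT (log2 with both 0.82 ± 0.04, limma adjusted p = 6.37e-06). Sesn2, the leucine-sensing sestrin 2, fell to 7.46 ± 0.242 FPKM in shRNA1 and 6.96 ± 0.0799 FPKM in shRNA3, against 12.8 ± 0.228 FPKM in WT (-0.75 ± 0.05, limma adjusted p = 3.03e-05). The exonuclease gene Aen fell (-0.46 ± 0.09, limma adjusted p = 0.00357), as did the receptor gene Notch1 (-0.37 ± 0.06, limma adjusted p = 0.00114). Aen changed by -0.20 with shRNA1 (not called) and by -0.72 with shRNA3 (called). Aen and Ephx1 were not called with the hairpins as a single group. Scaled to the same total, 3 of the 17 were called higher and 6 lower (median -0.09).

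Of the p53 targets for cell death, 13 of 15 were tested, 6 were called higher, 4 lower and 3 not called (median 0.08). The death receptor gene Tnfrsf10b rose to 22.4 ± 0.231 FPKM in shRNA1 and 24.5 ± 0.658 FPKM in shRNA3, against 15.9 ± 0.559 FPKM in WT (0.53 ± 0.05, limma adjusted p = 6.94e-05). The autophagy regulator Dram1 rose (0.47 ± 0.10, limma adjusted p = 0.00475). Bid, which links death receptors to mitochondria, fell (-0.47 ± 0.06, limma adjusted p = 0.00035), and the metalloreductase gene Steap3 fell (-0.25 ± 0.06, limma adjusted p = 0.0124). Steap3 changed by -0.14 with shRNA1 (not called) and by -0.36 with shRNA3 (called). Steap3 was not called without WT replicate 2 (-0.20) or with the hairpins as a single group. Scaled to the same total, 4 were called higher and 4 lower (median 0.04).

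Of the p53 regulators, 18 of 19 were tested, 2 were called higher, 5 lower and 11 not called (median -0.03). The deacetylase gene Sirt1 fell to 4.89 ± 0.136 FPKM in shRNA1 and 3.98 ± 0.0389 FPKM in shRNA3, against 7.23 ± 0.329 FPKM in WT (-0.60 ± 0.06, limma adjusted p = 0.000192). The deubiquitinase gene Usp10 fell (-0.25 ± 0.04, limma adjusted p = 0.00139) and so did the checkpoint kinase gene Atr (-0.22 ± 0.07, limma adjusted p = 0.0247), while the p53 kinase gene Hipk2 rose (0.31 ± 0.06, limma adjusted p = 0.00391). Taken separately, Atr changed by -0.06 with shRNA1 (not called) and -0.38 with shRNA3 (called), and Hipk2 by 0.19 with shRNA1 (not called) and 0.43 with shRNA3 (called). Atr was not called without shRNA1 replicate 2 (-0.21), shRNA3 replicate 1 (-0.20), WT replicate 1 (-0.21) or WT replicate 2 (-0.23), and neither Atr nor Hipk2 was called with the hairpins as a single group. With same-total scaling, 1 regulator was called higher and 6 lower (median -0.09).

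All 13 GADD45 partners were tested, 7 were called higher, 3 lower and 3 not called (median 0.14). Cdk1, the mitotic kinase that GADD45 proteins bind, rose to 94.8 ± 2.82 FPKM in shRNA1 and 92.2 ± 5.55 FPKM in shRNA3, against 73.7 ± 0.71 FPKM in WT (0.34 ± 0.04, limma adjusted p = 0.000562). Map3k4, the kinase they activate, rose (0.30 ± 0.05, limma adjusted p = 0.00265), and the JNK gene Mapk9 rose (0.31 ± 0.05, limma adjusted p = 0.00158). Gadd45gip1, a mitochondrial ribosome protein that binds GADD45, fell (-0.31 ± 0.08, limma adjusted p = 0.0151), a call lost without WT replicate 2 (-0.21) and with no filter (-0.31). Map3k4 changed by 0.15 with shRNA1 (not called) and by 0.44 with shRNA3 (called), and Gadd45gip1 by -0.18 with shRNA1 (not called) and by -0.44 with shRNA3 (called). Map3k4, Mapk9 and Gadd45gip1 were not called with the hairpins as a single group. Scaled to the same total, 4 partners were called higher and 4 lower (median 0.07).

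Of the paralogues of the 10 genes, 14 of 18 were tested, 6 were called higher, 1 lower (Btg3, -0.30) and 7 not called (median 0.11). Ccni, cyclin I, rose to 115 ± 1.22 FPKM in shRNA1 and 171 ± 2.55 FPKM in shRNA3, against 99.6 ± 0.437 FPKM in WT (0.49 ± 0.03, limma adjusted p = 2.31e-05). Ccng2, cyclin G2 and the closest relative of Ccng1, rose (0.35 ± 0.06, limma adjusted p = 0.00156). Plk3 rose (0.23 ± 0.06, limma adjusted p = 0.0128) and the Btg2 relative Tob1 rose (0.17 ± 0.05, limma adjusted p = 0.0289). Tob1 changed by 0.25 with shRNA1 (called) and by 0.09 with shRNA3 (not called). Plk3 was not called without WT replicate 1 (0.18). Tob1 was not called without shRNA1 replicate 1 (0.16), shRNA3 replicate 2 (0.15), WT replicate 1 (0.20) or WT replicate 2 (0.13), nor with same-total scaling (0.11). Ccni, Plk3 and Tob1 were not called with the hairpins as a single group. Scaled to the same total, 4 were called higher and 1 lower (median 0.05).

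Of the 20 cell-cycle genes that p53 lowers through p21 and the repressor complex DREAM, all tested, 12 were called higher, 3 lower and 5 not called (median 0.17). With the hairpins as a single group, 6 were called higher and 0 lower, beside 798 higher and 715 lower of all 11079 genes in that fit. Aurkb, the cytokinesis kinase, rose to 80.3 ± 3.90 FPKM in shRNA1 and 105 ± 2.06 FPKM in shRNA3, against 67.3 ± 2.83 FPKM in WT (0.44 ± 0.04, limma adjusted p = 0.000156). Top2a, topoisomerase II alpha, rose to 322 ± 5.0 FPKM in shRNA1 and 368 ± 7.97 FPKM in shRNA3, against 263 ± 5.56 FPKM in WT (0.39 ± 0.03, limma adjusted p = 8.32e-05). The spindle checkpoint gene Bub1 rose (0.38 ± 0.05, limma adjusted p = 0.000463), and Cdk1 is also on this list. Against WT, shRNA1 had 13 called higher and 0 lower, beside 17.6% and 18.4% of all genes. The shRNA3 cells had 10 higher and 5 lower, beside 27.4% and 27.8% of all genes. Scaled to the same total, 10 were called higher and 4 lower with both hairpins (median 0.11). Aurkb was not called with the hairpins as a single group. No cell counts or cell-cycle measurements were analysed here.

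**Figure D4:**
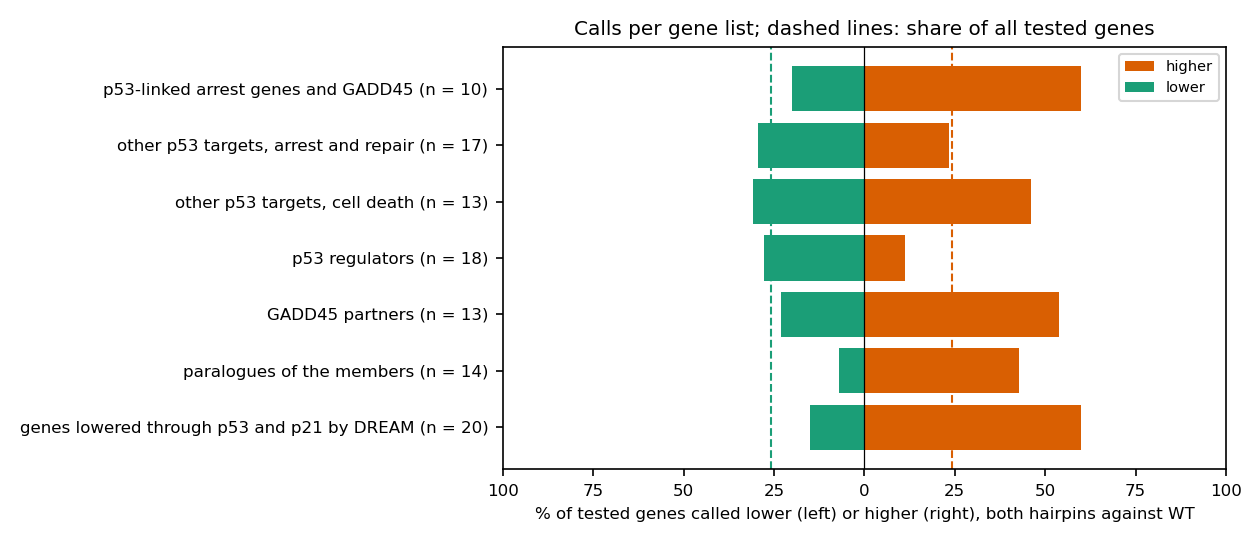
Percent of tested genes called higher (right) or lower (left) with both hairpins averaged against WT, in the 10 genes and in each list (horizontal bars). Dashed lines mark the share of all tested genes, 24.1% higher and 25.9% lower. Of the 20 cell-cycle genes 12 are higher and 3 lower, and of the 17 arrest and repair targets 4 are higher and 5 lower.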

How the data were processed

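RNA of 6 libraries from 4T1 cells was isolated with a column kit and sequenced after a stranded mRNA library preparation, per the labels' protocols. The authors deposited 1 table of FPKM per library. The tables do not name the unit, which was taken as FPKM from the non-whole values and from Cufflinks 2.2.1 in the submitters' processing notes. In those notes stand the build mm10, Bowtie2 2.2.3, TopHat2 2.0.13 and SAMtools 0.1.19. Which annotation was used, whether counting used strand and how multiply mapped reads were handled are points not given in the sources used here.

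No further scaling was applied to the deposited values. Median-of-ratios factors between the libraries were 1.001 to 1.005. Factors from the FPKM totals ran from 0.9636 in WT replicate 1 to 1.038 in shRNA3 replicate 1. The tables do not say whether the values had been scaled between libraries before deposit, and same-total scaling would undo such a step. The 11079 genes averaging 1 FPKM or more were fitted as log2(FPKM + 1) with limma 3.58.1 (R 4.3.3), 3 groups, empirical Bayes moderation (residual df 3, prior df 4.96), two-sided tests and Benjamini-Hochberg adjustment over all genes tested. The added 1 FPKM makes log2 changes of low genes smaller. Python 3.11.15, pandas 2.3.3, NumPy 2.4.6 and matplotlib 3.10.9 were used for the remaining steps. Alternatives were pseudocounts of 0.1 and 0.5, no filter, a filter of 5 FPKM, 3 scalings, a replicate block, the hairpins as 1 group and leaving out each library. Coordinates are from GENCODE M21 and sequences from RefSeq (GRCm38.p6). A further immune marker is not reported here. The 10 genes and the lists were chosen with earlier results of these data known. Named from each list were the up to 4 genes with the largest absolute change with both hairpins among those called there, with the same sign in each hairpin and all 4 hairpin libraries on 1 side of both WT libraries.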

Additional observations from a re-analysis of the deposited data

Results flagged for a closer look

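The 2 hairpins against the same RNA gave different changes against WT for 7 of the 10 genes, by limma's test of shRNA3 against shRNA1 with Benjamini-Hochberg adjustment. All 10 genes were chosen with these values known, so the differences are a description, beside 42.5% of all genes. Gadd45b (1.45), Gadd45g (0.70), Plk2 (0.40), Gadd45a (0.27) and Trp53 (0.26) were higher in shRNA3 than in shRNA1 on the log2(FPKM + 1) scale. Btg2 (-0.80) and Cdkn1a (-0.72) were lower in shRNA3 than in shRNA1. The Gadd45a difference was not called without shRNA3 replicate 1 (0.23).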

How the results depend on the processing

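Treating both hairpins as 1 group gave 3 of the 10 genes called against WT in place of 8, 1513 of all genes in place of 5538 and 16 of the other pathway genes in place of 55. Under the pseudocounts, filters, scalings and replicate block, the counts of calls stayed within 1.5 times. With no filter, however, 15716 genes were tested, and the share of all genes called was lower. It was 32.8% with both hairpins (50.0% with the filter of 1 FPKM), 21.9% with shRNA1 (36.0%), 37.2% with shRNA3 (55.2%) and 27.2% between the hairpins (42.5%). Leaving out 1 library at a time gave a median change of 0.41 to 0.50 for the 10 genes with both hairpins against WT, beside -0.01 over all genes. These fits leave 1 group with 1 library, so counts of calls from them are not given. A group left with 1 library is assumed to vary like the others. The sign of Mdm2 turned without shRNA1 replicate 1 (shRNA1 against WT, 0.01, and -0.16 without replicate 2) and without shRNA1 replicate 2 (shRNA3 against shRNA1, 0.06, and -0.11 without replicate 1), none of them called. With the replicate block, 8 of the 10 genes were called with both hairpins, 7 with shRNA1, 6 with shRNA3 and 7 between shRNA3 and shRNA1. In the same order, 47.0% (5205), 31.8%, 52.3% and 38.9% of all genes were called in that fit. Deviations of same-numbered libraries correlated at 0.199 (shRNA1 and shRNA3), 0.0103 (shRNA1 and WT) and -0.0719 (shRNA3 and WT), and nothing in the labels ties same-numbered libraries together, so they were not treated as pairs. Btg2 was not tested with a filter of 5 FPKM. Phlda3 was called with shRNA1 under quantile normalization (0.23). The causes of these shifts were not tested. Depth is unknown, so what it limits cannot be stated.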
